A study of Mus musculus with 12 samples.

Results

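Neuropeptides are cut from larger precursor proteins inside dense core granules and released from sensory neurons when these are excited. Those made in the trigeminal ganglion, whose sensory neurons serve the face and mouth, act on blood vessels and immune cells in the periphery and on neurons of the brainstem at the central ends. The genes followed here are 8 of the 55416 genes counted, chosen by symbol: Tac1, Adcyap1, Smr2, Vip, Nmb, Gal, Npy and Cartpt. They encode the precursors of substance P and neurokinin A (Tac1), PACAP (Adcyap1), vasoactive intestinal peptide (Vip), neuromedin B (Nmb), galanin (Gal), neuropeptide Y (Npy) and the CART peptides (Cartpt), and a small secreted protein first named for the mouse submaxillary gland (Smr2). The CGRP genes Calca and Calcb are not among them. All 8 matched 1 gene identifier each, and 7 had enough reads to enter the test across all genes, while Npy did not.

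Polyadenylated RNA of trigeminal ganglia (TG) from adult C57Bl6 mice was sequenced in 12 libraries 1 month after injection, to ask what loss of Prdm12 does in the adult ganglion. Prdm12 encodes a transcriptional regulator that nociceptors, the neurons for painful stimuli, need in development. The 6 inducible knockouts (iKO) were Rosa26Cre ERT2; Fl/Fl for Prdm12 and received tamoxifen, iKO 1 to 3 being female and iKO 4 to 6 male. The 6 controls were of several kinds. Control 1 (Rosa26Cre ERT2; Fl/+, female), controls 2 and 3 (+/+; Fl/+, a female and a male) and control 4 (Rosa26Cre ERT2; +/+, male) received tamoxifen, and controls 5 and 6 (Rosa26Cre ERT2; Fl/Fl, both male) received corn oil. The Rosa26 locus is active in nearly all cell types, so the deletion is not limited to neurons, and the floxed allele of control 1 could also be deleted. Nothing in the labels says whether a ganglion, an animal or a pool made up a library.

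Libraries held 13207526 to 24178970 counted reads. Prdm12 (ENSMUSG00000079466) averaged 16.8 CPM (counts scaled to the library's total and its TMM factor) in iKO and 106.2 CPM in controls, and fell by 2.64 ± 0.185 (SE) on the log2 scale (edgeR adjusted p = 2.7e-05). The 16 general sensory neuron genes summed to 18110 to 21850 CPM in iKO libraries and 17390 to 21440 CPM in control libraries, so markers of the labelled tissue were present at like levels in both groups. Some libraries stood apart. Anterior pituitary markers reached 2813 CPM in iKO 3, central nervous system markers 2517 CPM in control 6 and skeletal muscle markers 863 CPM in iKO 5, each the highest of the 12 libraries, and values of the 8 genes over all 12 libraries that leaving out 1 of these moves by over 1.5 times or turns round are also given without it. That choice was made after seeing the data.

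The enzyme encoded by Pam turns a glycine at the end of a peptide into an amide, which many neuropeptides need to bind their receptor. Many of their precursors carry an amidation signal, which is that glycine followed by a pair of basic residues. In the coding sequence this was searched as GGN followed by 2 codons from those of lysine, AAA and AAG, and those of arginine, which are CGN, AGA and AGG, in frame and on the coding strand. The signal was present in 6 of the 8 genes (75%), against 16.3% of the 2560 mouse genes whose coding sequence is no longer than 175 codons and 35.2% of 21526 protein-coding genes of any length. Smr2 and Cartpt had none. A match in these letters is a description of the sequence and not of a mature peptide. The stretches below, from GENCODE transcripts of build GRCm38, show where each peptide ends: 33 bases of coding sequence in lower case and then the signal in capitals. Tac1 has 1 for substance P and 1 for neurokinin A, and those of Adcyap1 and Vip are the second of 2 in each gene, which end PACAP-38 and vasoactive intestinal peptide.
Tac1 substance P (chromosome 6): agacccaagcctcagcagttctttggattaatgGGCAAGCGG
Tac1 neurokinin A (chromosome 6): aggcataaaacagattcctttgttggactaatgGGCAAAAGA
Adcyap1 (chromosome 17): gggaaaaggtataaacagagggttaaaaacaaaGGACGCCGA
Vip (chromosome 10): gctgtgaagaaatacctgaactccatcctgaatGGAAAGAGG
Nmb (chromosome 7): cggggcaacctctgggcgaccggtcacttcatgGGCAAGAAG
Gal (chromosome 19): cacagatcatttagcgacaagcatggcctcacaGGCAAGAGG
Npy (chromosome 6): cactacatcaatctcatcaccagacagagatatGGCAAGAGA

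Smr2 is shown apart because it is the gene that differed between the groups. Its coding sequence of 150 codons held 2 adjacent pairs of basic codons, beginning at codons 33 and 149, and neither followed a glycine codon. Precursors are cut at pairs of basic residues, but the second pair was the last 2 codons before the stop, with no sequence after it. In the same format, with the pair in capitals, both pairs read as follows.
Smr2 first pair (chromosome 5): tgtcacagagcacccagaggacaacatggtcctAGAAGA
Smr2 second pair (chromosome 5): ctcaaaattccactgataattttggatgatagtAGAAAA

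Of the 7 genes tested across all 12 libraries, only Smr2 passed the threshold, an adjusted p of 0.05 over 16637 genes. It fell to 1.6 CPM in iKO, against 3.98 CPM in controls. Tac1 and Cartpt were somewhat higher in iKO, by 0.20 and 0.32 on the log2 scale, and did not pass. Adcyap1, Nmb, Gal and Vip did not pass either. In all, 0.379% of the genes tested passed, and 10.9% had an unadjusted p under 0.05, against 3 of the 7 here (Smr2, Tac1 and Cartpt).

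**Figure D1:**
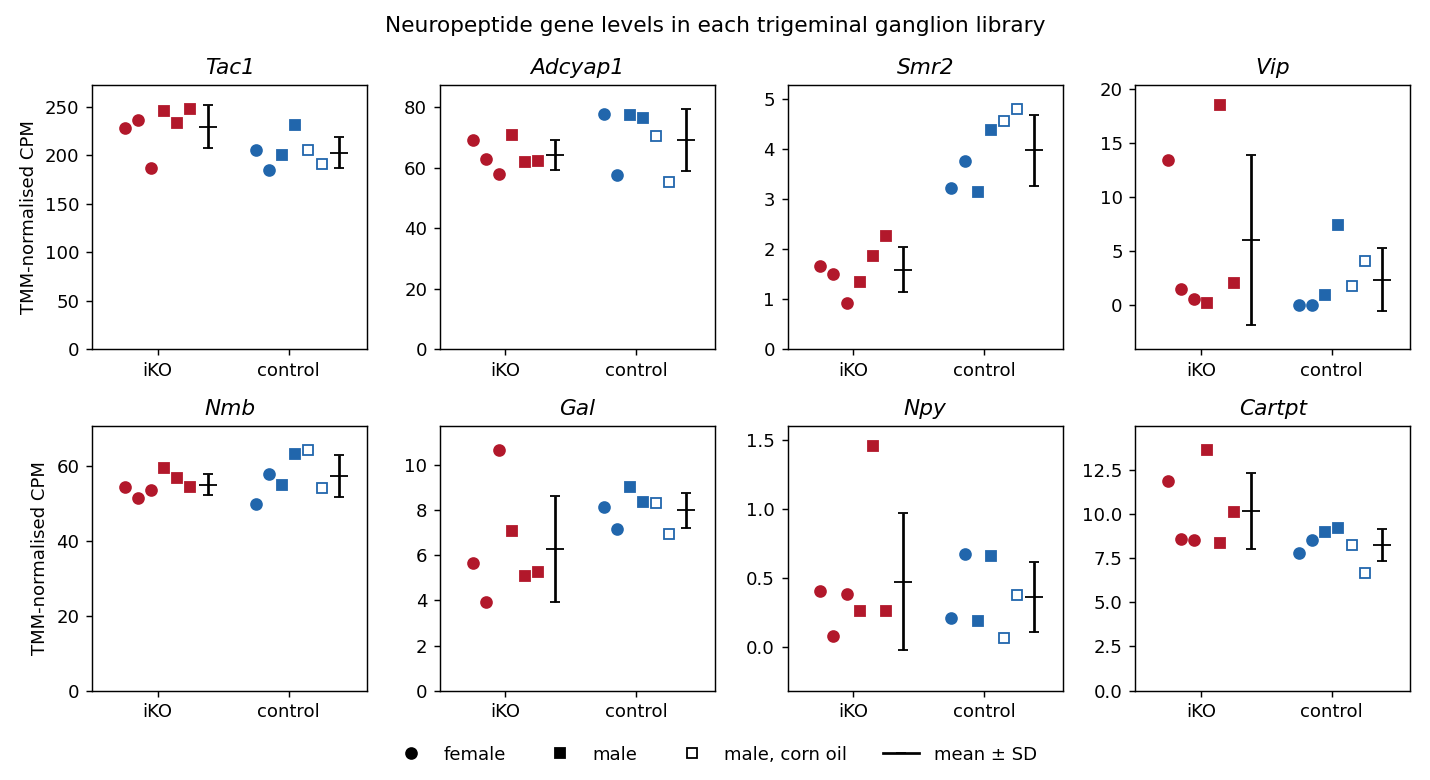
Each panel plots 1 gene, with TMM-normalised CPM on the y axis and the 6 iKO libraries left of the 6 control libraries. Circles are females, squares males, open squares the corn oil controls, and the bar is the mean ± SD. Only the Smr2 panel shows groups that do not overlap.

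To compare different genes, levels were divided by the length of all annotated exons of each gene together, 3399 bases for Tac1 and 793 for Nmb. The transcripts present can be shorter, so the order depends on this length. Before the division, Tac1 averaged 203 CPM and Nmb 57.2 CPM in controls. Some reads of Nmb could also belong to the overlapping gene Sec11a. Per kilobase of exon, the order in controls was Nmb (72.2 ± 6.97 CPM per kilobase, SD, n = 6), Tac1 (59.7 ± 4.7), Adcyap1 (18.3 ± 2.72), Gal (10.1 ± 0.995), Cartpt (6.44 ± 0.72), Smr2 (2.95 ± 0.524), Vip (0.699 ± 0.856) and Npy (0.637 ± 0.454). On this measure the substance P and neuromedin B precursors stood well above the other members. In iKO the level per kilobase was 69.2 ± 3.47 for Nmb and 67.6 ± 6.58 for Tac1. Nmb was above Tac1 in 4 of 6 iKO libraries and in 6 of 6 control libraries, and their ranges overlapped in both groups. Gal was above Cartpt in 1 of 6 iKO libraries, iKO 3, and in 6 of 6 control libraries, a pair picked out after the values were seen. Vip was above Npy in 4 of 6 iKO and 3 of 6 control libraries, so these neighbours could not be ordered.

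Smr2 (ENSMUSG00000029281) is used in single-cell studies of mouse sensory ganglia as a marker of a class of Calca-expressing nociceptors. It measured 1.66, 1.52, 0.93, 1.35, 1.86 and 2.26 CPM in iKO 1 to 6, against 3.22, 3.77, 3.15, 4.38, 4.57 and 4.81 CPM in controls 1 to 6. Every iKO library was below every control, and so was each sex taken alone. The lowest control, control 3, still held more than the highest iKO library, iKO 6. Of all genes tested, 0.523% were separated in this direction. The values rest on few reads, 20 to 46 per iKO library and 46 to 102 per control library.

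The Smr2 mean was 1.6 ± 0.454 CPM in iKO and 3.98 ± 0.708 CPM in controls (SD, n = 6 each), which puts iKO at 40.1% of controls. The log2 fold change was -1.27 ± 0.185 (SE), with a 95% interval from -1.67 to -0.87 and an edgeR adjusted p of 0.0103, the 20th smallest p of 16637. In a whole ganglion, fewer cells of a type and less RNA per cell cannot be told apart. The general sensory neuron genes had a median log2 fold change of 0.01 beside it, and with libraries scaled on those genes the edgeR adjusted p of Smr2 was 0.026. None of the 16 passed, and the smallest p were those of the RNA-binding protein genes Elavl3 (-0.24, edgeR adjusted p = 0.188) and Rbfox3 (-0.23, edgeR adjusted p = 0.39). Among peptidergic nociceptor markers, the CGRP gene Calcb rose (0.63, edgeR adjusted p = 0.00166), while the list as a whole leaned lower. Its median log2 fold change was -0.27. At an unadjusted edgeR p under 0.05, 5 of its 10 genes were lower and 1 higher, against 10.9% of all genes tested in either direction. Salivary gland markers could be present beside a gene of this name. Of 2 picked out from them, Smr3a had 6 reads over the 12 libraries and Prol1 none. The 2 with enough reads to test were Aqp5, at 0.254 to 11.8 CPM, and Amy1, at 22.8 to 31.5 CPM, and neither passed. Aqp5 was highest in iKO 6 and, among controls, in control 3 (6.98 CPM). The part of salivary gland RNA in the Smr2 level was not tested.

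The Smr2 call stood close to the threshold. It was lost without control 2 (log2 fold change -1.22, edgeR adjusted p = 0.0544), among tamoxifen-injected animals alone (-1.20, edgeR adjusted p = 0.062), among males alone (-1.21, edgeR adjusted p = 0.49) and without iKO 3, iKO 5 and control 6 together (-1.14, edgeR adjusted p = 0.054), the last of these chosen after seeing the data. The size and direction of the difference stayed close to the value over all libraries in each.

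Tac1 (ENSMUSG00000061762) encodes the tachykinin precursor whose substance P widens vessels and makes them leak. It measured 228.8, 236.1, 186.6, 246, 233 and 248 CPM in iKO 1 to 6, against 205, 184.9, 200.3, 230.9, 205 and 191 CPM in controls 1 to 6. In iKO, 4 of the 6 libraries were above every control, and iKO 3 was nearly as low as the lowest control. The groups therefore overlapped.

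The mean of Tac1 was 229.7 ± 22.4 CPM in iKO and 203 ± 16 CPM in controls (SD, n = 6 each). The log2 fold change of 0.20 ± 0.0656 (SE) had a 95% interval from 0.06 to 0.34 and an edgeR adjusted p of 0.267, so the difference did not pass. Without iKO 3, which also had the highest sum of pituitary markers, it was 0.24, with an edgeR adjusted p of 0.0962, and the part of pituitary RNA was not tested.

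Adcyap1 (ENSMUSG00000024256) encodes PACAP, a peptide of the secretin family that dilates cranial vessels. Its level was 69.2, 62.8, 58, 71, 62 and 62.3 CPM in iKO 1 to 6, against 77.7, 57.5, 77.5, 76.7, 70.6 and 55.4 CPM in controls 1 to 6. None of the iKO libraries was above the control median, and the controls fell into 4 high and 2 low libraries that took in the whole iKO range. On the log2 scale the difference was -0.10 ± 0.0943 (SE), with a 95% interval from -0.30 to 0.10 and an edgeR adjusted p of 0.751. Without control 6 it was -0.16 (edgeR adjusted p = 0.539).

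Vip (ENSMUSG00000019772), a relative of PACAP made by parasympathetic and some sensory neurons, varied more between libraries than any other member. It measured 13.5, 1.52, 0.549, 0.192, 18.5 and 2.11 CPM in iKO 1 to 6, against 0, 0, 0.926, 7.44, 1.81 and 4.1 CPM in controls 1 to 6. The 2 highest libraries were iKO 5 and iKO 1, and the next was control 4. A count of 0 allows up to 0.209 CPM in control 1 and 0.155 CPM in control 2, taking 3 reads as the limit of counting error alone, on the library's total before TMM scaling.

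For Vip the mean was 6.06 ± 7.89 CPM in iKO and 2.38 ± 2.91 CPM in controls (SD, n = 6 each), so each SD exceeded its mean. Its log2 fold change of 2.07 ± 1.19 (SE) had a 95% interval from -0.50 to 4.64 and an edgeR adjusted p of 0.569. Without iKO 5 it was 1.11 (edgeR adjusted p = 0.87), in males only 0.97 (edgeR adjusted p = 0.865), with no sex covariate 1.35 (edgeR adjusted p = 0.691) and with limma-voom 1.13 (adjusted p = 0.86), so its size is not settled. Among the 15508 genes that averaged 1 CPM or more, Myh11, the myosin of smooth muscle, was most like Vip across libraries (Pearson r = 0.93 and Spearman rho = 0.86 over 12 libraries, groups centred, on log2(CPM + 1)). Myh11 measured 20.4, 7.74, 6.89, 4.55, 20.6 and 5.45 CPM in iKO 1 to 6, against 3.93, 4.96, 5.31, 18.4, 5.66 and 7.64 CPM in controls 1 to 6. Its 3 highest libraries were the 3 highest for Vip, and without iKO 5 and control 4, the 2 libraries farthest from its median, r was 0.89. The second most like gene was Acta2, the smooth muscle actin (r = 0.83, rho = 0.58). None of 6 endothelial and vessel wall markers, Acta2 among them, passed between iKO and control. Their summed level ran from 168 to 248 CPM in iKO and 190 to 221 CPM in controls, most of it Rgs5, which averaged 135 CPM. Acta2 alone was 32.4 CPM in iKO 1, 34.5 in iKO 5, 25.3 in control 4 and 24.7 in control 6. In the other libraries it was 5.35 to 12.5 CPM. The part of smooth muscle or vessel RNA in the Vip levels was not tested. Of 5 parasympathetic neuron markers, the 2 with enough reads to test were Nos1 and Slc5a7. They averaged 53.8 and 1.44 CPM over all 12 libraries, and neither passed. Of 2 picked out from the other 3, Chat had 6 reads over the 12 libraries. Slc18a3 had 10 reads, 6 of them in iKO 5. The part of parasympathetic RNA in the Vip levels was not tested.

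**Figure D2:**
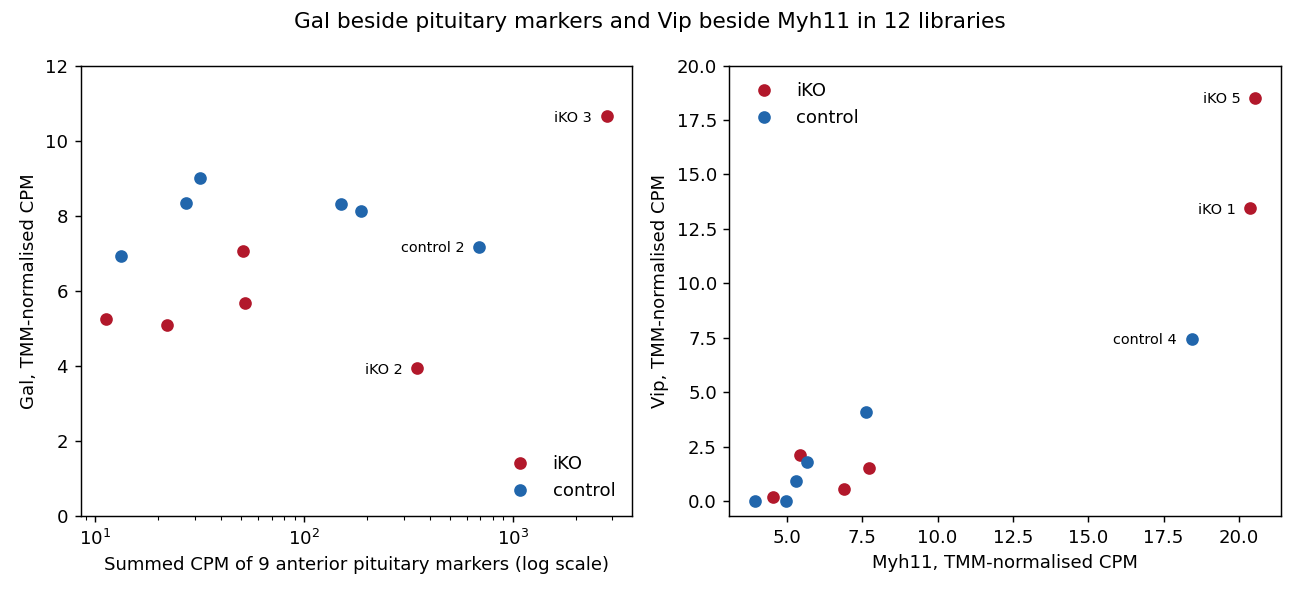
The left panel plots Gal (CPM, y axis) against the summed CPM of 9 anterior pituitary markers (x axis, log scale), and the right panel plots Vip (CPM, y axis) against Myh11 (CPM, x axis). Points are the 6 iKO and 6 control libraries. The library iKO 3 is highest for both Gal and the pituitary markers, and the 3 libraries above 7 CPM of Vip are also the 3 highest for Myh11.

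Nmb (ENSMUSG00000025723) encodes neuromedin B, a bombesin-like peptide linked to itch in mouse. It varied little between libraries, with 54.3, 51.4, 53.5, 59.3, 56.7 and 54.3 CPM in iKO 1 to 6, against 49.8, 57.7, 54.8, 63.1, 64.1 and 53.9 CPM in controls 1 to 6. The iKO values all lay inside the control range. Its log2 fold change was -0.04 ± 0.0563 (SE), with a 95% interval from -0.16 to 0.08 and an edgeR adjusted p of 0.844, and without control 6 it was -0.06 (edgeR adjusted p = 0.767). Exons of Nmb overlap those of Sec11a on the same strand, and 14.7% of its 50-base stretches also occur in that gene, so some of these reads could belong to it.

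Gal (ENSMUSG00000024907) encodes galanin, which is low in intact sensory neurons and rises after nerve injury. It measured 5.67, 3.95, 10.6, 7.05, 5.1 and 5.25 CPM in iKO 1 to 6, against 8.13, 7.18, 9.01, 8.34, 8.3 and 6.93 CPM in controls 1 to 6. In iKO, 4 of the 6 libraries were below every control, while iKO 3 was above every control. The mean was 6.28 ± 2.37 CPM in iKO and 7.98 ± 0.784 CPM in controls (SD, n = 6 each).

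The log2 fold change of Gal was -0.36 ± 0.205 (SE), with a 95% interval from -0.80 to 0.09 and an edgeR adjusted p of 0.569. Without iKO 3 it was -0.56, with an unadjusted p of 0.00131 and an edgeR adjusted p of 0.105, so 1 library decided the size and the call was not made in either case. Pituitary markers summed to 2813 CPM in iKO 3 and 11.2 to 348 CPM in the other iKO libraries, against 13.3 to 690 CPM in controls. Of the 9 markers 6 had enough reads to test and none passed, and Lhb had no reads in any library. The second highest pituitary sum among iKO libraries was in iKO 2, which had the lowest Gal. The part of pituitary RNA in the Gal level was not tested.

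Npy (ENSMUSG00000029819) encodes neuropeptide Y, made mainly by sympathetic neurons and by sensory neurons after injury. It was below the filter on low counts, with 7, 1, 9, 4, 36 and 5 reads in iKO 1 to 6, against 3, 13, 3, 11, 1 and 8 reads in controls 1 to 6. The mean was 0.471 ± 0.496 CPM in iKO and 0.361 ± 0.257 CPM in controls (SD, n = 6 each). Of the 62 reads in iKO libraries, 36 came from iKO 5, at 1.46 CPM, and no other library exceeded 0.671 CPM. A fit with no filter gave 0.44 ± 0.524 (SE) on the log2 scale, with an edgeR adjusted p of 0.801. Without iKO 5 the direction turned, at -0.46 ± 0.501 (SE; edgeR adjusted p = 0.839). The 2 sets of replicates also went opposite ways, with -0.63 ± 0.496 (SE; edgeR adjusted p = 0.977) in replicates 1 to 4 and 1.90 ± 0.629 (SE; edgeR adjusted p = 0.0818) in replicates 5 and 6, which include iKO 5. Of 9 sympathetic neuron markers, the 3 with enough reads to test were Th, Slc18a2 and Ddc. They averaged 9.91, 9.55 and 2.66 CPM over all 12 libraries, and none passed. Of 2 picked out from the other 6, Dbh had 8 reads over the 12 libraries, 5 of them in iKO 5. Hand2 had 14 reads, 8 of them in iKO 5. The part of sympathetic RNA in the Npy level was not tested.

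Cartpt (ENSMUSG00000021647) encodes the CART peptides, which lack the amidation signal searched above. It measured 11.9, 8.57, 8.54, 13.6, 8.33 and 10.1 CPM in iKO 1 to 6, against 7.78, 8.52, 8.95, 9.18, 8.24 and 6.65 CPM in controls 1 to 6. In iKO, 3 of the 6 libraries were above every control and the other 3 lay among them. The mean was 10.2 ± 2.15 CPM in iKO and 8.22 ± 0.919 CPM in controls (SD, n = 6 each). The log2 difference of 0.32 ± 0.137 (SE) had a 95% interval from 0.02 to 0.61 and an edgeR adjusted p of 0.423.

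The controls are of different kinds, so the groups were also compared within the tamoxifen-injected animals and against corn oil. Replicates 1 to 4 all received tamoxifen, and their genotypes differ. There, 0.114% of genes passed, among them Smr2, at 1.36 ± 0.316 CPM in iKO and 3.63 ± 0.572 CPM in controls (SD, n = 4 each). On the log2 scale it fell by 1.41 ± 0.22 (SE; edgeR adjusted p = 0.0464). That call was lost whichever of the 12 libraries was left out, with log2 fold changes from -1.52 to -1.26 and edgeR adjusted p-values from 0.0705 to 0.293. Cartpt had a log2 value of 0.37 (edgeR adjusted p = 0.544) and Tac1 had 0.17 (edgeR adjusted p = 0.67). Vip had 2.21, with a 95% interval from -2.69 to 7.11 (edgeR adjusted p = 0.876).

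Replicates 5 and 6 compare tamoxifen with corn oil in 4 males of 1 genotype. There, 0.00601% of genes passed and none of the members did. Smr2 was 2.06 ± 0.284 CPM in the tamoxifen-injected iKO and 4.69 ± 0.167 CPM in the corn oil controls (SD, n = 2 each). On the log2 scale the difference was -1.19 ± 0.283 (SE), with an unadjusted p of 0.00144 and an edgeR adjusted p of 0.401. Tac1 was 240.5 ± 10.45 CPM in iKO and 198 ± 10.3 CPM in controls (SD, n = 2 each), with a log2 fold change of 0.28 and an edgeR adjusted p of 0.613. Gal was 5.17 ± 0.105 CPM in iKO and 7.62 ± 0.971 CPM in controls (SD, n = 2 each), with a log2 value of -0.56 and an edgeR adjusted p of 0.738. Tested directly, the effect on Smr2 in replicates 1 to 4 minus that in replicates 5 and 6 was -0.22 (log2), with a 95% interval from -1.001 to 0.56 and an edgeR adjusted p of 1. The same test made 0 calls among 16637 genes with edgeR, 568 of which had an unadjusted p under 0.05.

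**Figure D3:**
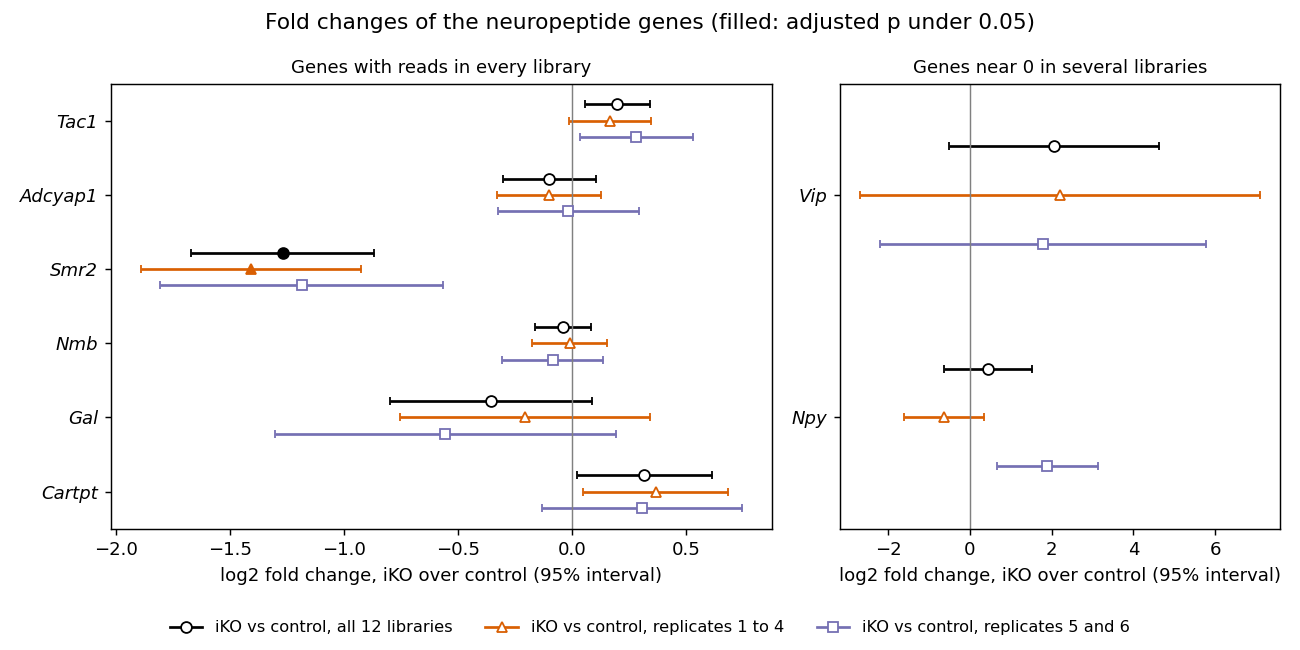
Points are log2 fold changes of iKO over control (x axis) with 95% intervals, for each neuropeptide gene (y axis) over all 12 libraries, in replicates 1 to 4 and in replicates 5 and 6. Filled points have an adjusted p under 0.05. The Smr2 points lie between -1.41 and -1.19, and the right panel has a wider axis for Vip and Npy, whose Npy fit used no filter.

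Sex was looked at because Smr2 takes its name from androgen regulation in the submaxillary gland. Smr2 measured 1.82 ± 0.459 CPM in male iKO (SD, n = 3) and 1.37 ± 0.387 CPM in female iKO (SD, n = 3), and 4.23 ± 0.741 CPM in male controls (SD, n = 4) and 3.5 ± 0.386 CPM in female controls (SD, n = 2). Male over female, the log2 value was 0.35 ± 0.188 (SE), with an edgeR adjusted p of 0.535. None of the 7 members passed between the sexes, where 0.108% of genes did. The female minus male difference of the iKO effect on Smr2 was -0.16 (log2), with a 95% interval from -1.01 to 0.68. No member had an unadjusted p under 0.05 for that difference, against 1.91% of all genes (318), and edgeR made 0 calls among them.

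The peptides act through G protein-coupled receptors, and 9 of 17 receptor genes listed had enough reads to test. None passed, and their median log2 fold change was 0.10, against 0.00 over all genes tested. The 2 with the smallest p were Adcyap1r1, the PACAP receptor, at 16.3 ± 4.64 CPM in iKO and 23.2 ± 10.4 CPM in controls (SD, n = 6 each; log2 difference -0.51, edgeR adjusted p = 0.538), and Npy2r, a neuropeptide Y receptor (0.11, edgeR adjusted p = 0.723). The Adcyap1r1 level was 24 CPM in iKO 3 and 11.2 to 18.5 CPM in the other iKO libraries, against 41.3 and 27.9 CPM in controls 6 and 2 and 13.5 to 21.7 CPM in the other controls. These were also the libraries with the highest sums of central nervous system markers in their groups, with 1048 CPM in iKO 3, against 2517 and 1514 CPM in controls 6 and 2. Without control 6 the log2 value of Adcyap1r1 was -0.26 (edgeR adjusted p = 0.735), and the part of central nervous system RNA was not tested. Npy1r had a log2 value of 0.11. Nmbr, the neuromedin B receptor, was below the filter, at 0.219 CPM in iKO and 0.273 CPM in controls, and Brs3 had no reads. Npy1r, Nmbr and Brs3 were picked out after their values were seen.

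Precursors are cut by proprotein convertases and carboxypeptidases and amidated by the enzyme of Pam. All 11 genes of this machinery were tested and none passed, with a median log2 fold change of 0.02. Pam was 189.5 ± 4.94 CPM in iKO and 174 ± 7.6 CPM in controls (SD, n = 6 each), higher by 0.11 on the log2 scale with an edgeR adjusted p of 0.27. Cpd, a carboxypeptidase, had -0.14 (edgeR adjusted p = 0.341).

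Dense core granules store and release the peptides. None of 10 granule genes passed, with a median log2 fold change of -0.07. The nearest to the threshold was Scg2, a secretogranin, at 176.5 ± 8.07 CPM in iKO and 213 ± 16 CPM in controls (SD, n = 6 each), with a log2 fold change of -0.28 ± 0.0549 (SE) and an edgeR adjusted p of 0.0526. Scg2 passed without control 6 (-0.32, edgeR adjusted p = 0.00981) and without iKO 3, iKO 5 and control 6 together (-0.27, edgeR adjusted p = 0.0387), and not without iKO 3 or iKO 5 alone (edgeR adjusted p = 0.0889 and 0.126). Scg3, another granin of the granule membrane, had -0.23 (edgeR adjusted p = 0.278).

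Peptidases at the cell surface end the action of released peptides. None of 8 such genes passed, with a median log2 fold change of -0.07. Dpp4, which trims the ends of peptides such as neuropeptide Y, had -0.72 (edgeR adjusted p = 0.267). Anpep, an aminopeptidase, had -0.69 (edgeR adjusted p = 0.27).

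Among 35 other peptide precursor genes only 10 had enough reads, and none passed, with a median log2 fold change of 0.02. Nts, the precursor of neurotensin, was 6.7 ± 1.39 CPM in iKO and 4.59 ± 0.677 CPM in controls (SD, n = 6 each), with a log2 fold change of 0.61 ± 0.118 (SE) and an edgeR adjusted p of 0.0511. Nts passed without iKO 5 (0.70, edgeR adjusted p = 0.0138) and without all 3 of these libraries (0.71, edgeR adjusted p = 0.0387), and not without iKO 3 or control 6 alone (edgeR adjusted p = 0.0848 and 0.0706). Apln, the precursor of apelin, had -1.04 (edgeR adjusted p = 0.245), and without control 6 it had -0.83 (edgeR adjusted p = 0.345). It was highest in controls 6 and 2 (7.78 and 7.08 CPM) and, among iKO libraries, in iKO 3 (3.85 CPM). These libraries also had the highest sums of central nervous system markers in their groups, and the part of that RNA in the Apln level was not tested.

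**Figure D4:**
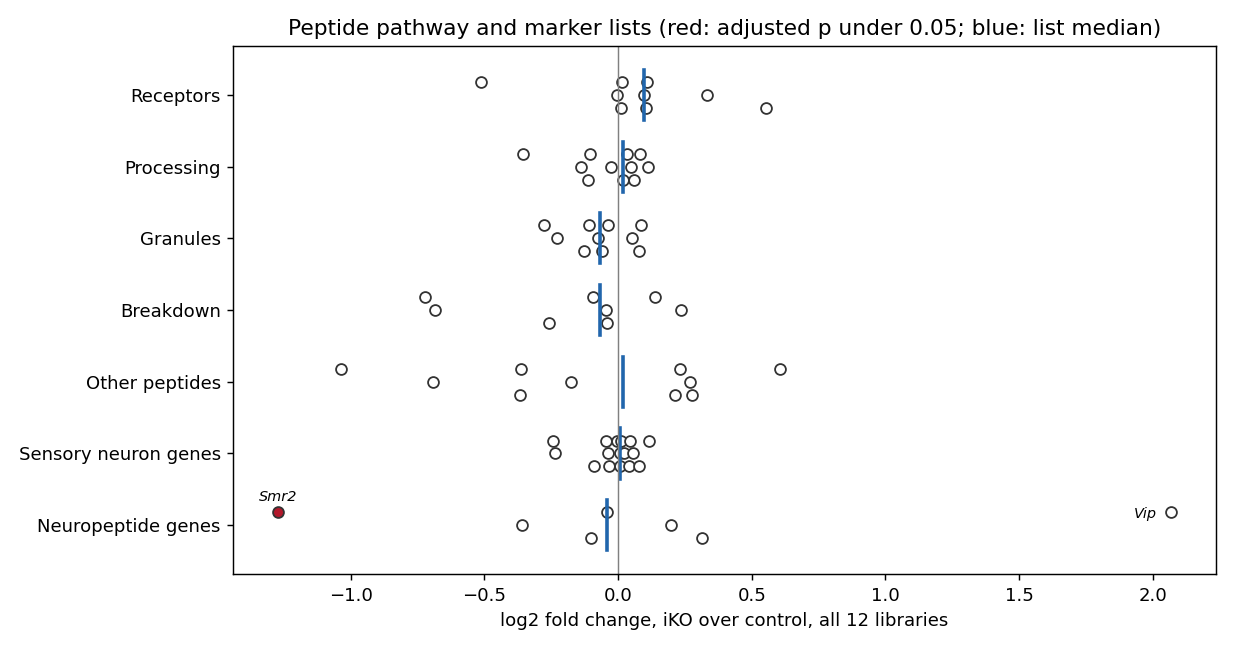
Each point is 1 tested gene, with its log2 fold change of iKO over control on the x axis and its list on the y axis. Red points have an adjusted p under 0.05 and blue bars are list medians. Smr2 is the only red point, and no receptor, processing, granule, breakdown or other peptide gene is red.

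The genes whose levels followed each member most closely over the 12 libraries, with each group centred on its own mean, were also found among those 15508 genes. They are named as a description, since the best of so many genes is high by construction and libraries share depth and tissue makeup. For Tac1 they were Gpatch11 (Pearson r = 0.92, Spearman rho = 0.86), Stmn2, a microtubule regulator of neurons (r = 0.91, rho = 0.78), and Rabggtb (r = 0.89, rho = 0.90). For Adcyap1 they were Cnst (r = 0.96, rho = 0.96), Asb13 (r = 0.94, rho = 0.92) and Ccdc28a (r = 0.93, rho = 0.89). For Smr2 the values were lower, with Cenpi (r = 0.86, rho = 0.81), Mpc1 (r = 0.85, rho = 0.85) and Cers5 (r = 0.85, rho = 0.86).

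For Nmb they were Sdhaf1 (Pearson r = 0.91, Spearman rho = 0.87), Hoxd1 (r = 0.90, rho = 0.80) and Stx2 (r = 0.89, rho = 0.88). For Gal they were R3hdm2 (r = 0.96, rho = 0.91), Smarcc2 (r = 0.93, rho = 0.83) and Shank1, a synaptic scaffold (r = 0.93, rho = 0.78). Without iKO 2 and iKO 3, r for Gal was 0.83, 0.70 and 0.67 in the same order. For Cartpt they were Slc6a19 (r = 0.94, rho = 0.83), Txnrd3 (r = 0.93, rho = 0.94) and Cda (r = 0.93, rho = 0.95), and for Vip the third, after the smooth muscle genes, was Apol8 (r = 0.81, rho = 0.60). Each r was also taken without the 2 libraries farthest from the median of the like gene, and was then lower in every pair: it was 0.69 for Smr2 and Cenpi, 0.76 for Nmb and Hoxd1, 0.71 for Vip and Acta2 and 0.70 for Vip and Apol8, and between 0.67 and 0.93 over all 21 pairs.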

How the data were processed

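The authors deposited raw read counts for each gene, 1 list per library, with no header and no normalisation. Per the labels' protocols, polyadenylated RNA went into TruSeq libraries that keep no strand. Build GRCm39 and the tools STAR 2.7.8a, featureCounts 2.0.1 and bcl2fastq 2.20.0.422 are named in the submitters' processing notes. The annotation release and the treatment of overlapping genes are not given in the sources used. Symbols, exon lengths and coding sequences came from GENCODE tables of GRCm38, an older build, so no coordinates are given. Of 55416 identifiers 3333 had no symbol and held 0.274% of the counts.

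Counts were tested in R 4.3.3 with the quasi-likelihood test of edgeR 4.0.16 (filterByExpr by group, TMM scaling, sex as covariate), adjusted by Benjamini-Hochberg over 16637 genes, with a threshold of 0.05. Replicates 1 to 4 and 5 and 6 were contrasts of 1 fit of all libraries. Levels are TMM-normalised CPM. Npy was fitted with no filter. The tests were tried on simulated counts. Within each group the libraries differed by a chi-square of 7.16 to 26.2 per degree of freedom, so none was counted as a duplicate. The labels do not tie libraries to animals beyond their numbers, and p-values measure the spread between these libraries. Limits and intervals for low counts cover counting error only.

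The members and gene lists were chosen with earlier results of these data known. All members are named. From each list described the genes past the threshold are named, up to 4, and otherwise the 2 with the smallest p, and for each tested member the 3 genes most like it. A gene outside this rule is marked where it appears, and 1 result that the rule takes from the peptidergic nociceptor list is not reported here. For the salivary list 10 of 11 symbols matched. Alternatives were DESeq2 1.42.0, limma-voom (limma 3.58.1), other scalings, filters and covariates, subsets of animals and leaving out each library. Whether equal replicate numbers mark pairs was checked by correlating the deviations of same-numbered libraries from their group means.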

Additional observations from a re-analysis of the deposited data

Results flagged for a closer look

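In 2 places 1 library lay far from the other 5 of its group, by a rule that flags about 1 in 20 groups by chance. Tac1 measured 186.6 CPM in iKO 3, the lowest of the iKO libraries, the other 5 of which ran from 228.8 to 248 CPM. Npy measured 1.46 CPM in iKO 5, the highest of the iKO libraries, from 36 reads.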

How the results depend on the processing

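Over all 12 libraries, the count of genes past the threshold was 63 and became 138 with no filter, 338 with DESeq2, 15 with a replicate block, 1 in males only and 28 among tamoxifen-injected animals only, and 23 to 88 when single libraries were left out. The number of neuropeptide genes past it was 1 and became 0 with the replicate block (Smr2 -1.26, edgeR adjusted p = 0.0535), in males only, among tamoxifen-injected animals only and without the 3 libraries that stand apart (a choice made after seeing the data), and 0 to 1 without single libraries. In replicates 1 to 4, the count of genes was 19 and became 621 with no filter, 139 with DESeq2, 12 with those libraries fitted alone, 8 with the replicate block and 2 to 18 without single libraries. The neuropeptide genes past it, 1 in that comparison, became 2 with no filter and 2 with DESeq2, and 0 with the libraries alone, with the replicate block and without any single library. In replicates 5 and 6 they became 2 with no filter, against 0. The added gene was Vip in replicates 1 to 4 (2.17 and edgeR adjusted p = 4.25e-07 with no filter, 7.22 and adjusted p = 0.0345 with DESeq2), and in replicates 5 and 6 with no filter they were Vip (1.80, edgeR adjusted p = 1.13e-07) and Smr2 (-1.18, edgeR adjusted p = 0.0198). The causes were not tested. The replicate numbers do not pair the libraries by this check: same-numbered libraries correlated by 0.35, 0.129, -0.396, 0.275, -0.068 and 0.149 for numbers 1 to 6, and only iKO 1 correlated best with its own number.

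Log2 values that changed sign were all among differences that had not passed. For the effect in replicates 1 to 4 minus 5 and 6, Vip was 0.41 and -0.35 with limma-voom. Leaving out single libraries gave, for that difference, -0.257 to 0.088 for Adcyap1, -0.087 to 0.218 for Cartpt, -0.041 to 0.203 for Nmb and -1.72 to 7.78 for Vip. For the female minus male difference it gave -0.178 to 0.243 for Adcyap1, -0.289 to 0.086 for Cartpt, -0.156 to 0.593 for Gal, -0.066 to 0.158 for Nmb, -0.33 to 0.086 for Smr2 and -0.138 to 0.039 for Tac1. In replicates 1 to 4 it gave -0.21 to 0.016 for Adcyap1 and -0.06 to 0.054 for Nmb, and in replicates 5 and 6 -0.188 to 0.158 for Adcyap1, -0.211 to 0.033 for Nmb and -0.51 to 2.63 for Vip. Male over female it gave -0.029 to 0.122 for Adcyap1, -0.027 to 0.157 for Cartpt and -0.199 to 0.166 for Gal. Over all 12 libraries, no tested neuropeptide gene changed sign under any alternative run. Smr2 ran from -1.32 to -1.14 under the alternatives other than leaving out 1 library, with adjusted p-values of 1.55e-06 to 0.49. Depth limits Smr2 and Npy, with at most 102 and 36 reads in any library.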
